A study of Mus musculus with 22 samples.

Results

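Eomes, Mixl1, Gsc, Lhx1 and Mesp1 are transcription factor genes of the primitive streak, the region of the gastrulating embryo from which mesoderm and endoderm arise. These 5 genes were taken by symbol from the 32285 genes of the gene tables and are described here across days and cell types of mouse gastruloids. A gastruloid is an aggregate of embryonic stem cells that forms embryo-like cell types in culture. All gastruloids came from the wild-type E14Tg2A line, were started with 300 cells in N2B27 medium, aggregated for 48 h and then received a pulse of 3 µM CHIR99021, a GSK3 inhibitor that activates Wnt signalling. There was no arm without CHIR99021. Single-cell RNA was counted with unique molecular identifiers (UMIs) in 4 experiments, and lipid barcodes (MULTI-seq) marked which gastruloid a cell came from.

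The gastruloid was the replicate. In the experiment named MULTI-seq 3, day 3 was sampled with 24 gastruloids, and 16 were taken on every later day (3.5, 4, 4.5, 5). Another, MULTI-seq 2, covered day 4 with 12 gastruloids, of which 11 had the 30 cells required here, and day 4.5 with 12. Its 4 lanes in which days 3 and 3.5 were pooled together have no cell in the authors' final table and were not analysed here. MULTI-seq 1 covered day 5 with 24, and a 10x experiment without gastruloid barcodes held 1 lane each of day 3 and day 4. Days 3.5 and 4 shared a pool of cells, as did days 4.5 and 5, and days 4 and 4.5 of MULTI-seq 2. Day 3 of MULTI-seq 3 was a pool of its own, so that day and pool cannot be told apart in its comparison with day 3.5. The gastruloids were picked as representative when they were collected, and all derive from 1 cell line, so p-values measure the spread between gastruloids within an experiment and not between lines.

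The final table of the authors gave 25 cell type names to 77674 cells in 18 lanes, of which 53730 cells could be assigned to 136 gastruloids. Median depth per lane was 8287 to 38443 UMIs per cell, and the 135 gastruloids used held 1293296 to 57333371 UMIs each. In the day 3 lanes of MULTI-seq 3, 47.8% of 12086 cells had a call for 1 gastruloid, and mitochondrial UMIs were 1.94 to 2.26% in MULTI-seq 3 lanes against 4.85 to 5.48% in the others. No pair of lanes shared more than 26 barcodes. Levels are CPM, the UMIs of a gene per 1000000 UMIs of the same cells. At day 3, cells named Primitive Streak held T at 614 CPM. Those named Anterior Primitive Streak held the anterior streak markers Foxa2 at 148.7, Otx2 at 133.2 and Cer1 at 71.35 CPM, but Chrd at 5.49 CPM. They also held the endoderm marker Sox17 at 180 CPM. Over whole days, the 6 visceral endoderm markers summed to 3.42 to 9.74 CPM (0 to 2 of them at 0: Afp, Apob or Ttr) and 6 naive stem cell markers to 4.46 to 12.98 CPM. The 8 trophoblast markers, among them Cdx2 and Hand1, summed to 99.6 to 247.9 CPM with none at 0, and their source was not tested. Names are clusters of expression that include these 5 genes, so levels are compared between names as a description, with no test.

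As background, Nodal signalling, together with Wnt, induces Eomes, a T-box factor, in the posterior epiblast, and Eomes is required for definitive endoderm and for the earliest mesoderm. Mixl1 is a paired-type homeobox factor of the streak, and Gsc is the homeobox factor known from the organizer and the anterior streak. Lhx1 is a LIM homeobox factor of the anterior mesendoderm, needed for head formation. Mesp1 is a basic helix-loop-helix factor that marks nascent mesoderm, including the precursors of the heart, and is expressed again with its neighbour Mesp2 where presomitic mesoderm (PSM) forms somites.

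In GRCm38 with GENCODE annotation, Eomes (ENSMUSG00000032446) lies at chr9:118478212-118486132 on the plus strand, with up to 6 exons. The other members lie on the minus strand: Mixl1 (ENSMUSG00000026497) at chr1:180693043-180697034, Gsc (ENSMUSG00000021095) at chr12:104471209-104473330, Lhx1 (ENSMUSG00000018698) at chr11:84518284-84525535 and Mesp1 (ENSMUSG00000030544) at chr7:79792241-79793788. Mesp2 lies 16.9 kb from Mesp1, and the antisense gene Lhx1os starts 124 bases from Lhx1, with no shared exonic base. The RefSeq promoter table (GRCm38.p6) held 4 of the 5 members, all but Mixl1. Of the stretches upstream of both the RefSeq and the GENCODE start, that of Mesp1 (52 bases) is not printed. Those of Eomes, Gsc and Lhx1 are given below. Each is written 5′ to 3′ on the strand of its gene, Eomes from chr9:118477939-118478188, Gsc from chr12:104473331-104473486 and Lhx1 from chr11:84525536-84525784, and capitals mark the only match to a searched motif.
Eomes: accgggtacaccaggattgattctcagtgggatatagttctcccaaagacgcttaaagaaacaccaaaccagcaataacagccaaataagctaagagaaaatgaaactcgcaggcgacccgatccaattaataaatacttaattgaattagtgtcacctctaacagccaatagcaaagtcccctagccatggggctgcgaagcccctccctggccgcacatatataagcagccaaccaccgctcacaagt
Gsc: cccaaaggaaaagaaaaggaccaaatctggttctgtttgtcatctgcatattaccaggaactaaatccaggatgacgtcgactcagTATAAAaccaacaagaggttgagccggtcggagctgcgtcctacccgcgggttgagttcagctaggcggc
Lhx1: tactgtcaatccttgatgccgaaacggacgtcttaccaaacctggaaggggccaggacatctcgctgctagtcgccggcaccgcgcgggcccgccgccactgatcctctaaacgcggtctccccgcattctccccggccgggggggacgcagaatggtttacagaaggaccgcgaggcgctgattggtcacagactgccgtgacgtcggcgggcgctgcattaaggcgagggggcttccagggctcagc
GC content was 46.4% for Eomes, 50.0% for Gsc and 64.7% for Lhx1, and Lhx1os begins inside the Lhx1 stretch.

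A set of 6 motifs was searched on both strands of the 300-base promoter windows: the T-box site TCACACCT (in 1.28% of 32851 RefSeq promoters), the TCF/LEF site CTTTGAT (3.73%), the homeodomain site TAATCC (7.06%), the Foxh1 site AATCCACA (0.855%), the Smad palindrome GTCTAGAC (0.213%) and the TATA box TATAAA (13.6%). The homeodomain and Foxh1 motifs share the letters AATCC, so their matches can overlap. The Gsc window held the letters TATAAA, the stretch in capitals above, whose first base lies at -164 from the RefSeq start, a match of letters only. Mesp1 held the T-box site at chr7:79793578-79793585 and the TCF/LEF site at chr7:79793615-79793621, both on its own strand and inside the GENCODE gene. Capitals mark the motif in the 30 bases printed around each, chr7:79793567-79793596 and chr7:79793603-79793632.
Mesp1 T-box site: aggggcccgctTCACACCTagggctcagga
Mesp1 TCF/LEF site: gctcgagccggCTTTGATatgctgatgaat
No other match was present in these windows.

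All 5 genes were high at day 3, low at day 3.5, and then parted: Eomes, Lhx1 and Mesp1 had higher medians at day 4, whereas Mixl1 fell again and the Gsc medians of both days were 5.43 and 5.58 CPM. At days 4.5 and 5 of MULTI-seq 3, Mesp1 and Gsc were detected in all gastruloids, and Eomes was not detected in 8 of 16 at day 4.5 and 3 of 16 at day 5. The lowest detected levels were near the floor, at 0.139 CPM for Mesp1 and 0.635 CPM for Gsc at day 4.5. A count of 0 for Eomes allows up to 0.209 to 0.715 CPM on that day (3 counts). In levels summed over a whole gastruloid, fewer cells of a type and less RNA per cell cannot be told apart. The values by gastruloid come next, member by member.

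Eomes was detected in every day 3 gastruloid of MULTI-seq 3, from 11.3 CPM through a median of 33.9 to 96.2 CPM. At day 3.5 the values ran from 0.295 through a median of 2.02 to 42.0 CPM, and at day 4 from 0.614 through 17.1 to 83.2 CPM. Both later days overlapped with day 3, and each spread from near 0 into the day 3 range. Eomes had a median of 0.478 CPM at day 4.5, when 8 of 16 gastruloids held no UMI, and of 0.300 CPM at day 5, with 2.73 CPM the highest.

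For Mixl1, day 3 gastruloids held between 29.5 and 157.6 CPM with a median of 94.6, day 3.5 gastruloids between 1.54 and 81.4 with a median of 19.6, and day 4 gastruloids between 0.741 and 22.7 with a median of 5.68. Each day was lower in its median than the one before, and neighbouring days overlapped. At days 4.5 and 5 the medians were 0.991 and 0.661 CPM.

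Gsc ran from 11.5 through a median of 30.01 to 79.1 CPM at day 3. Its day 3.5 range was 1.63 to 31.2 CPM around a median of 5.43, and its day 4 range 1.76 to 26.3 CPM around 5.58, so the latter days lay almost on top of each other. Gsc was detected in all gastruloids at day 4.5 (0.635 to 7.07 CPM, median 1.68) and at day 5 (0.337 to 7.18 CPM, median 1.29).

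Lhx1 at day 3 ran from 34.2 to 403.8 CPM with a median of 98.8. At day 3.5 it ran from 1.68 through 11.7 to 147.6 CPM, and at day 4 from 2.25 through 75.8 to 224 CPM. A few day 3.5 gastruloids thus reached the day 3 range while most did not. Medians were 6.59 CPM at day 4.5 and 2.78 CPM at day 5.

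Mesp1 ranged from 12.6 to 217 CPM at day 3 (median 55.7), from 2.10 to 97.8 at day 3.5 (median 5.21) and from 4.03 to 127.1 at day 4 (median 45.6). The day 4 and day 3 ranges thus overlapped over most of their width. Its median was 12.4 CPM at day 4.5 and 10.0 CPM at day 5.

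**Figure D1:**
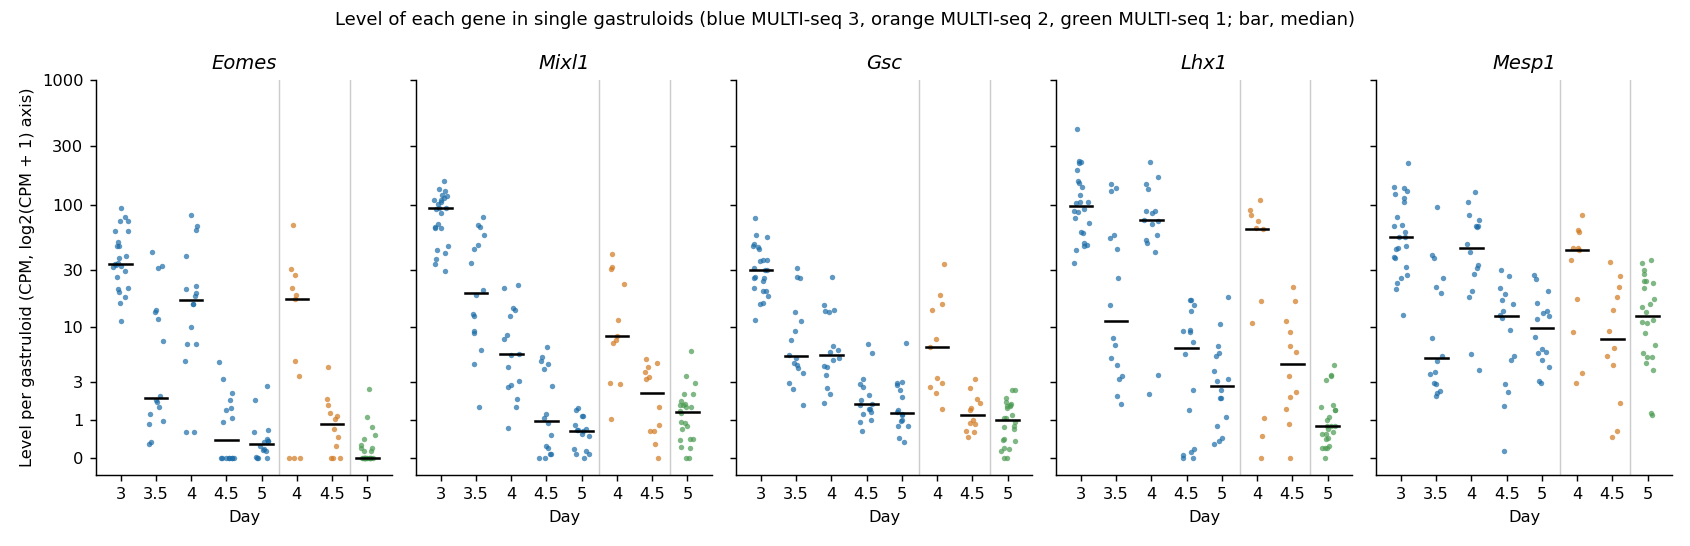
Level of each gene in each gastruloid, in CPM on a log2(CPM + 1) axis, by day, with blue points for MULTI-seq 3, orange for MULTI-seq 2 and green for MULTI-seq 1; each point is 1 gastruloid and each bar the median. Median Eomes went from 33.9 to 2.02 to 17.1 CPM between days 3 and 4 of MULTI-seq 3, while median Mixl1 went from 94.6 to 19.6 to 5.68 CPM.

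Between day 3 and day 3.5, all 5 genes fell. In edgeR's quasi-likelihood test on UMIs summed per gastruloid, Eomes fell by 2.04 on the log2 scale (SE 0.40, adjusted p = 1.49e-05) and Mesp1 fell by 2.04 (SE 0.42, adjusted p = 3.16e-05). Gsc fell by 1.80 (SE 0.30, adjusted p = 7.98e-07), Lhx1 by 1.65 (SE 0.43, adjusted p = 0.000802) and Mixl1 by 1.58 (SE 0.31, adjusted p = 1.88e-05). Of the 16 gastruloids of day 3.5, 16 lay below the day 3 median for Mixl1, 15 for Eomes, Gsc and Mesp1, and 13 for Lhx1. Against this stands a background in which 74.8% of 11981 genes tested passed, 35.6% in the downward direction. Median depth was 28638.5 UMIs per cell at day 3 and 36103 at day 3.5, and the pools differed; the part of either in the change was not tested.

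Between day 3.5 and day 4, which shared a pool and its lanes, the members parted. Mixl1 fell by 1.99 on the log2 scale (SE 0.47, edgeR adjusted p = 0.000567), with 14 of 16 day 4 gastruloids below the day 3.5 median. Mesp1 rose by 1.44 (SE 0.50, adjusted p = 0.0139), with 15 of 16 above it. Eomes was higher by 1.16 (SE 0.59) and Lhx1 by 0.99 (SE 0.56), each in 14 of 16 gastruloids, but neither passed the threshold of 0.05 in edgeR (adjusted p = 0.0898 and 0.123). Gsc differed by -0.38 (SE 0.40, adjusted p = 0.421), with 8 gastruloids on either side. In this comparison 60.4% of 13262 genes passed, so 2 of 5 members is no more than the background. Without lane B of the pool the Eomes difference was 1.32 and passed (adjusted p = 0.0472, where the 8 alternatives ranged from 0.0472 to 0.145).

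Between day 4 and day 4.5, measured in MULTI-seq 2, all 5 means were lower on the later day. At day 4 Eomes held 17.5 ± 20.6 CPM (SD, n = 11) and at day 4.5 1.07 ± 1.22 (SD, n = 12), but it did not pass the filter on low counts. The other 4 passed the filter, and all 4 fell: Gsc by 2.78 on the log2 scale (SE 0.45, edgeR adjusted p = 0.000552), Lhx1 by 2.73 (SE 0.60, adjusted p = 0.00632), Mixl1 by 2.55 (SE 0.48, adjusted p = 0.00192) and Mesp1 by 1.58 (SE 0.48, adjusted p = 0.0428). For each of the 5 genes, all 12 gastruloids of day 4.5 lay below the day 4 median, and the days still overlapped. Only 7.36% of 11064 genes passed in this comparison, 4.33% in the downward direction. Mesp1 missed the threshold with no filter on low counts (edgeR adjusted p = 0.0548) and in DESeq2 (adjusted p = 0.0533), and its 6 alternatives ranged from 0.0339 to 0.0548. With no filter on low counts, over the same 11 and 12 gastruloids, Eomes fell by 3.92 (SE 0.64, edgeR adjusted p = 0.000754), although 3 gastruloids of each day held no Eomes UMI.

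Between day 4.5 and day 5 of MULTI-seq 3 no member passed. Of the members, 3 passed the filter on low counts, and their differences were -0.73 for Lhx1 (SE 0.57, edgeR adjusted p = 0.432), -0.34 for Gsc (SE 0.35, adjusted p = 0.573) and -0.15 for Mesp1 (SE 0.40, adjusted p = 0.862). The count was 0 of 3 at an unadjusted p under 0.05 and 0 of 3 in DESeq2 as well, where 13.5% of 12298 genes passed in edgeR. Eomes (1.07 ± 1.41 against 0.513 ± 0.749 CPM) and Mixl1 (2.04 ± 2.29 against 0.647 ± 0.482 CPM, SD, n = 16 each) were too low for the filter.

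Experiments that sampled the same day are given side by side, with no test between them. At day 4, MULTI-seq 2 had medians of 17.4 CPM for Eomes, 8.36 for Mixl1, 6.68 for Gsc, 64.8 for Lhx1 and 43.6 for Mesp1, beside 17.1, 5.68, 5.58, 75.8 and 45.6 CPM in MULTI-seq 3. At day 5, the 24 gastruloids of MULTI-seq 1 had medians of 12.5 CPM for Mesp1, 1.33 for Mixl1, 1.00 for Gsc and 0.803 for Lhx1, and 14 of them held no Eomes UMI. The unbarcoded day 3 lane stood higher for Mixl1, at 247.1 CPM (95% Poisson interval 242.9 to 251.3, which covers counting error only), above all 24 day 3 gastruloids. Its Eomes level was 81.7 CPM, Gsc 55.6, Lhx1 122.4 and Mesp1 66.5, each within the range of those gastruloids. In the unbarcoded day 4 lane, Eomes was at 6.84, Mixl1 at 9.98, Gsc at 2.58, Lhx1 at 17.1 and Mesp1 at 30.7 CPM. A further pool of days 4 and 4.5 in MULTI-seq 2, whose cells carry no gastruloid call and so no day, held Eomes at 3.25 and 3.85 CPM, Lhx1 at 13.8 and 12 CPM and Mesp1 at 19.6 and 20.4 CPM in its 2 lanes. These lanes have no replicate, and the experiments differ in more than the day.

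By cell type, the day 3 signal sat in a small set of names. Cells named Early Nascent Mesoderm were 11.4% of cells and held 74.9% of Mesp1 UMIs, 59.0% of Eomes, 58.5% of Lhx1, 44.8% of Mixl1 and 37.8% of Gsc UMIs. Cells named Primitive Streak were 56.8% of cells and held 42.0% of Mixl1 and 34.0% of Gsc UMIs, but 14.7% of Lhx1. Cells named Anterior Primitive Streak, at 2.37% of cells, held 21.6% of Lhx1 and 21.0% of Gsc UMIs.

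Eomes at day 3 was 214.9 ± 38.3 CPM in Early Nascent Mesoderm (SD, n = 12 gastruloids with at least 20 such cells). It was 149.1 CPM in the 137 Anterior Primitive Streak cells (95% Poisson interval 137.7 to 161.3) and 95.8 in the 49 Mature Endoderm cells (80.6 to 113). Next came Early Posterior PSM at 24.6 ± 9.58 CPM (SD, n = 5) and Primitive Streak at 19.5 ± 5.08 CPM (SD, n = 24), which differed by less than their spread. All other names with at least 20 cells were under 5 CPM.

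Mixl1 followed another order at day 3, with 351.6 ± 45.4 CPM in Early Nascent Mesoderm (SD, n = 12) and 264.4 CPM in Anterior Primitive Streak, then Early Posterior PSM at 93.4 ± 19.8 CPM (SD, n = 5) and Primitive Streak at 64.2 ± 15.4 CPM (SD, n = 24). The last 2 names overlapped, and Notochord, with 28 cells, was at 63.6 CPM. In Mature Endoderm, where Eomes, Gsc and Lhx1 were high, Mixl1 was at 27.4 CPM.

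Gsc was highest in the anterior and endodermal names at day 3, at 298 CPM in Anterior Primitive Streak (95% Poisson interval 281.7 to 315) and 169.7 in Mature Endoderm (149.2 to 192.2). Early Nascent Mesoderm followed at 105.9 ± 18.4 CPM (SD, n = 12) and Primitive Streak at 20.2 ± 6.27 CPM (SD, n = 24). Early Posterior PSM, rich in Mixl1, held Gsc at 5.66 ± 3.20 CPM (SD, n = 5).

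Lhx1 shared with Gsc its highest name, Anterior Primitive Streak, at 1115 CPM (95% Poisson interval 1083 to 1147). Early Nascent Mesoderm held 587.4 ± 84.5 CPM (SD, n = 12) and Mature Endoderm 366.8 CPM in 49 cells, and Notochord 74.7 CPM in 28 cells (95% Poisson interval 54.9 to 99.4), or 127.8 CPM over all final cells of that name, with or without a gastruloid call. In Early Posterior PSM and Primitive Streak Lhx1 was at 46.0 ± 12.4 (SD, n = 5) and 33.2 ± 14.7 CPM (SD, n = 24), within the spread of each other.

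Mesp1 was the most concentrated member at day 3: 463.5 ± 139.4 CPM in Early Nascent Mesoderm (SD, n = 12), 95.9 CPM in Anterior Primitive Streak, 28.5 ± 22.8 in Early Posterior PSM (SD, n = 5) and 25.0 ± 13.8 in Primitive Streak (SD, n = 24). In the 49 Mature Endoderm cells it was at 1.37 CPM (95% Poisson interval 0.166 to 4.94, from 2 UMIs), beside 0.979 CPM (0.613 to 1.48) in Early Neurectoderm, and these intervals overlap.

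**Figure D2:**
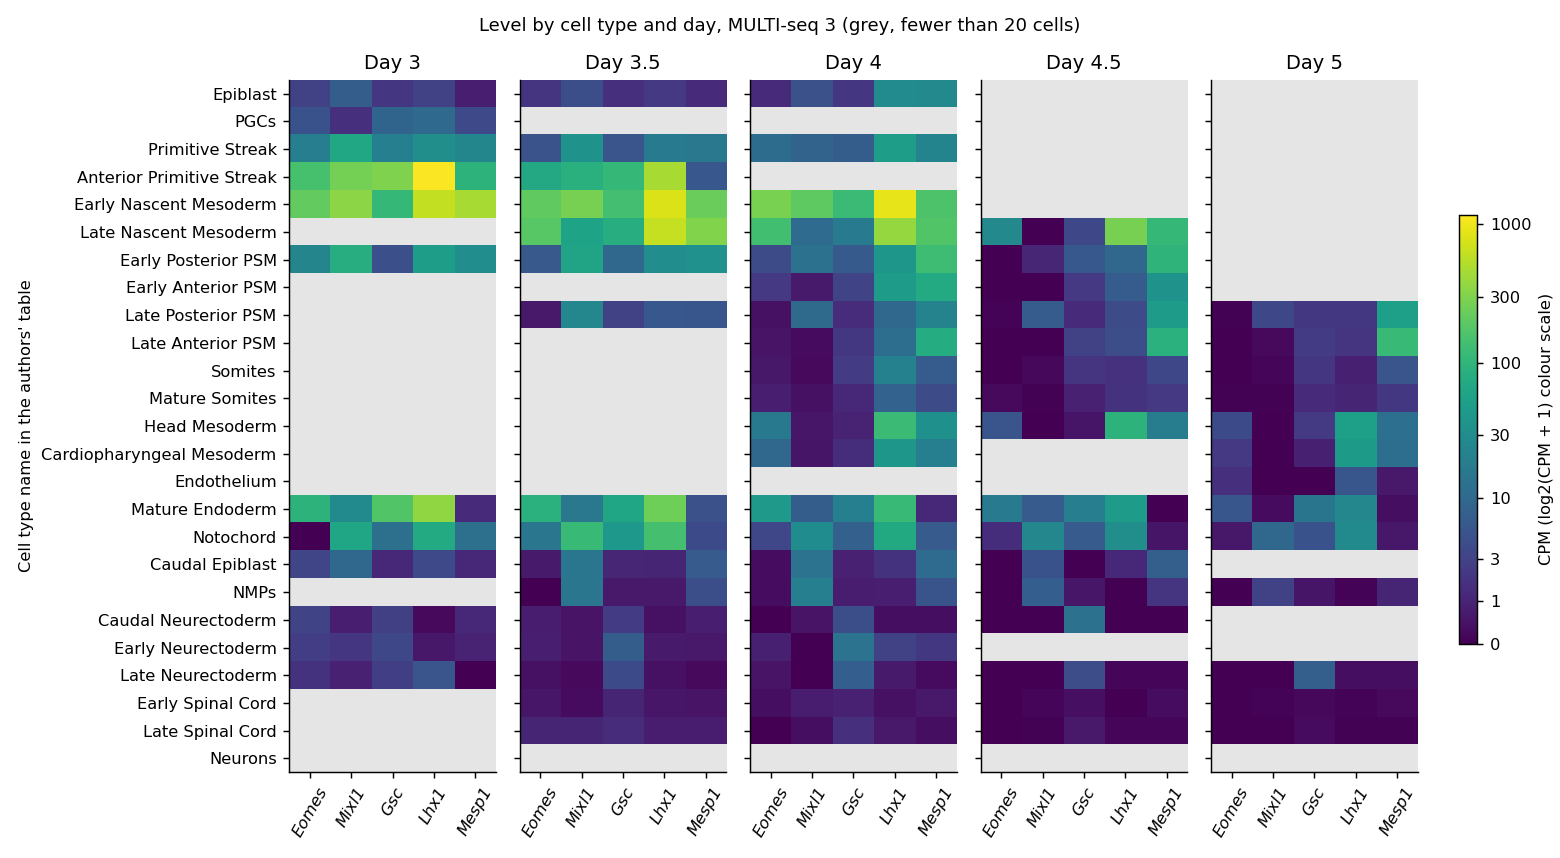
Pooled level of each gene by cell type name (rows) and day (panels) in MULTI-seq 3, in CPM on a log2(CPM + 1) colour scale, with names of fewer than 20 cells in grey. At day 3 the brightest cells are Early Nascent Mesoderm and Anterior Primitive Streak (Lhx1 616 and 1115 CPM), and at day 5 the PSM rows of Mesp1 are among the few that stay bright (118.1 CPM in Late Anterior PSM).

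At day 4 Primitive Streak was down to 0.902% of cells, and Eomes, Lhx1 and Mesp1 sat mainly in later mesoderm. Late Nascent Mesoderm was 9.72% of cells and held 60.2% of Eomes, 48.1% of Lhx1 and 35.7% of Mesp1 UMIs, at 144.6 ± 116.1, 442.4 ± 254 and 167.2 ± 95.7 CPM (SD, n = 11). Mature Endoderm, 8.64% of cells, held 32.0% of Gsc and 21.0% of Eomes UMIs, at 25.6 ± 18.6 and 54.7 ± 29.8 CPM (SD, n = 13). Head Mesoderm carried Lhx1 at 130.6 ± 39.1 CPM, Mesp1 at 32.0 ± 8.13 and Eomes at 16.5 ± 7.07 CPM (SD, n = 7). The 76 cells still named Early Nascent Mesoderm held Eomes at 283.6, Mixl1 at 204.5, Gsc at 123.1 and Lhx1 at 893.1 CPM, beside Mesp1 at 163.4 CPM, so all 5 members were present in these few cells.

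Mesp1 at day 4 was also high along the PSM. It was at 117.4 ± 36.0 CPM in Early Posterior PSM (SD, n = 15), 75.7 ± 30.4 in Early Anterior PSM (SD, n = 14) and 82.1 ± 53.3 in Late Anterior PSM (SD, n = 9), and these overlapped. Late Posterior PSM was lower, at 25.3 ± 13.01 CPM (SD, n = 13). Early Posterior PSM held 29.0% of all Mesp1 UMIs of the day.

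Mixl1 at day 4 was spread over axial, caudal, mesodermal and endodermal names, below the rare Early Nascent Mesoderm cells and the 17 cells still named Anterior Primitive Streak (45.2 CPM, 95% Poisson interval 31.1 to 63.5). It was at 23.1 ± 13.3 CPM in Notochord (SD, n = 6), 21.4 ± 4.97 in NMPs, the neuromesodermal progenitors of the trunk (SD, n = 9), and 13.2 ± 8.39 in Caudal Epiblast (SD, n = 13), levels that overlap. Late Nascent Mesoderm, at 12.8 ± 18.1 (SD, n = 11), and Early Posterior PSM, at 10.7 ± 5.99 CPM (SD, n = 15), were within the spread of Caudal Epiblast and held 15.4% and 19.5% of the Mixl1 UMIs, against 7.78% in Caudal Epiblast. Mature Endoderm, at 9.06 ± 7.12 CPM (SD, n = 13), held 10.8%. Notochord also held Lhx1, at 81.9 ± 34.2 CPM (SD, n = 6), and at this day its cells held T at 825 CPM and Noto, a notochord homeobox factor, at 40.1 CPM.

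At day 5 most Mesp1 UMIs lay in the PSM, and Lhx1, Gsc and Eomes were all found in Mature Endoderm among other names. Mesp1 was at 111.5 ± 54.0 CPM in Late Anterior PSM (SD, n = 12) and 52.9 ± 23.8 in Late Posterior PSM (SD, n = 15), which together held 48.7% and 36.9% of its UMIs. MULTI-seq 1 showed the same pair of names on top among names with at least 50 cells, at 133.0 ± 50.5 (SD, n = 14) and 46.0 ± 22.2 CPM (SD, n = 20). This minimum is above the 20 used elsewhere. Among the names it leaves out are Early Anterior PSM (20 cells) and Early Posterior PSM (21 cells). Lhx1 remained in Head Mesoderm at 56.1 ± 21.3 CPM (SD, n = 5) and Mature Endoderm at 26.2 ± 13.3 (SD, n = 8), and Gsc in Mature Endoderm at 13.1 ± 9.58 CPM (SD, n = 8). Mixl1 was at most 9.88 CPM, in Notochord, and Eomes at most 6.48 ± 4.03 CPM, in Mature Endoderm (SD, n = 8), counting only names with at least 20 cells.

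**Figure D3:**
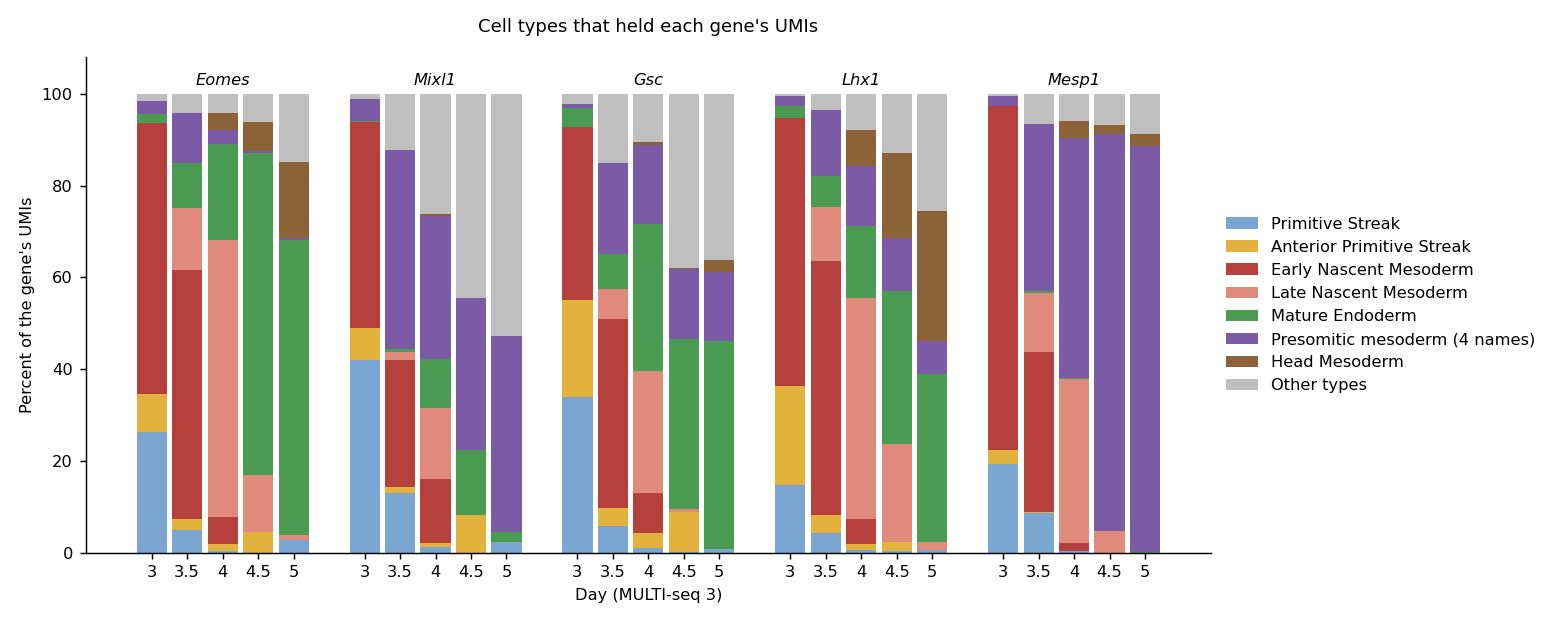
Percent of each gene's UMIs held by each cell type name on each day of MULTI-seq 3; bars are stacked to 100% and the 4 PSM names are joined. Early Nascent Mesoderm (red) held 74.9% of Mesp1 UMIs at day 3, whereas PSM names (purple) held most of them at day 5.

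Days 3 and 3.5 were also compared within the cells of a name. In Primitive Streak cells (24 gastruloids of day 3 against 13 of day 3.5), Eomes ran from 5.23 through a median of 20.3 to 27.0 CPM at day 3 and from 0 through 3.93 to 14.4 CPM at day 3.5. Gsc ran from 9.53 through 19.6 to 34.1 CPM and then from 0.652 through 4.85 to 12.8 CPM. For both genes all 13 day 3.5 gastruloids lay below the day 3 median. All 5 members fell in edgeR: Gsc by 2.10 on the log2 scale (SE 0.23, adjusted p = 7.13e-12), Eomes by 2.01 (SE 0.21, adjusted p = 5.39e-12), Mixl1 by 1.03 (SE 0.16, adjusted p = 7.81e-08), Lhx1 by 1.01 (SE 0.24, adjusted p = 0.000264) and Mesp1 by 0.72 (SE 0.28, adjusted p = 0.0224). The background was again 60.4%, here of 10318 genes. With at least 40 cells per gastruloid Mesp1 missed the threshold (edgeR adjusted p = 0.117, where its 3 alternatives ranged from 0.00864 to 0.117).

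Early Posterior PSM cells, with 5 gastruloids of day 3 and 10 of day 3.5, gave a call for 3 of the 5 members. Eomes was at 11.7, 22.9, 24.8, 24.9 and 38.6 CPM in the 5 day 3 gastruloids, and from 0 through a median of 5.13 to 12.03 CPM at day 3.5. The day 3.5 range reached just past the lowest day 3 gastruloid. Eomes fell by 2.18 on the log2 scale (SE 0.35, edgeR adjusted p = 3.72e-05), Mixl1 by 0.68 (SE 0.18, adjusted p = 0.00372) and Lhx1 by 0.85 (SE 0.30, adjusted p = 0.0265). Gsc differed by 0.66 (SE 0.45, adjusted p = 0.264) and Mesp1 by -0.39 (SE 0.67, adjusted p = 0.691). In all 37.6% of 8889 genes passed. Lhx1 missed the threshold without day 3 gastruloid 1, 4 or 5 (edgeR adjusted p = 0.182, 0.0518 and 0.0530, where its 7 alternatives ranged from 0.00173 to 0.182), and Mesp1 without gastruloid 1 differed by 0.43.

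In Early Nascent Mesoderm, the name with the highest Eomes, Mixl1 and Mesp1 levels of day 3, only 3 gastruloids had 20 cells at day 3.5. With at least 10 cells (20 gastruloids of day 3 and 6 of day 3.5), Mesp1 was at 444.8 ± 126.2 and then 234.2 ± 34.4 CPM (SD) and fell by 1.07 on the log2 scale (SE 0.13, edgeR adjusted p = 1.74e-09), with 6 of 6 gastruloids below the day 3 median. Mixl1 was at 340.9 ± 50.0 and 282.7 ± 62.6 CPM and fell by 0.40 (SE 0.08, adjusted p = 6.54e-05). Lhx1 went the other way, from 591.7 ± 104.8 to 776.5 ± 209.8 CPM, and rose by 0.28 (SE 0.09, adjusted p = 0.0121), with 5 of 6 gastruloids above the day 3 median. Eomes (205.5 ± 37.8 and 196.5 ± 36.1 CPM, log2 difference -0.18, SE 0.09, adjusted p = 0.0993) and Gsc (109.2 ± 22.8 and 137.5 ± 39.1 CPM, 0.24, SE 0.11, adjusted p = 0.0648) did not pass in edgeR. The groups overlapped for all 5 genes, and 45.2% of 7349 genes passed. Whether the changes differed between names was not tested.

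From day 3.5 to day 4, Early Posterior PSM cells lost Mixl1 and gained Mesp1. Mixl1 ran from 36.5 through a median of 66.9 to 85.4 CPM in the 10 gastruloids of day 3.5 and from 3.37 through 8.15 to 22.7 CPM in the 15 of day 4, with no overlap. Mesp1 ran from 3.58 through 10.5 to 97.6 CPM and then from 32.6 through 124.6 to 170 CPM, with overlap from a day 3.5 gastruloid that stood apart at 97.6 CPM. In edgeR Mixl1 fell by 2.42 on the log2 scale (SE 0.19, adjusted p = 1.45e-11), Gsc fell by 0.67 (SE 0.24, adjusted p = 0.0281) and Mesp1 rose by 2.04 (SE 0.29, adjusted p = 1.06e-06). Lhx1 (0.41, SE 0.19, adjusted p = 0.0857) and Eomes (-0.65, SE 0.28, adjusted p = 0.0672) did not pass. The share of genes called was 36.9% of 10049.

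Caudal Epiblast cells, with 13 gastruloids on each day, gave no such call. Mixl1 was at 15.8 ± 8.38 CPM at day 3.5 and 13.2 ± 8.39 at day 4 (SD, edgeR log2 difference -0.21, SE 0.28, adjusted p = 0.671), and Mesp1 at 7.57 ± 4.13 and 12.7 ± 9.15 CPM (0.71, SE 0.31, adjusted p = 0.109). Of these 2 members that passed the filter on low counts, Mesp1 had an unadjusted p of 0.028, and 18.8% of 8851 genes passed. Whether the Mixl1 change differed between Early Posterior PSM and Caudal Epiblast was not tested. With at least 10 cells per gastruloid, Primitive Streak cells could also be compared, in 16 gastruloids of day 3.5 and 5 of day 4. Lhx1 rose from 16.8 ± 17.5 to 64.1 ± 48.2 CPM (SD, edgeR adjusted p = 0.0024), Eomes rose from 4.50 ± 4.21 to 14.9 ± 10.3 CPM (adjusted p = 0.0204) and Mixl1 fell from 32.4 ± 18.2 to 7.79 ± 11.7 CPM (adjusted p = 0.0382). Mesp1 was at 14.7 ± 15.9 and 28.2 ± 17.1 CPM (adjusted p = 0.406), the days overlapped for all 4, and 5.58% of 8262 genes passed. This fit was not repeated with gastruloids left out. The cells named Primitive Streak held the 6 naive stem cell markers at a summed 14.1 CPM at day 3.5 and 58.8 CPM at day 4, and the 6 visceral endoderm markers at 2.75 CPM (Ttr and Afp at 0) and 32.1 CPM (Ttr and Apob at 0), and the part of such cells in these differences was not tested.

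Later steps could be tested within a name for few members. In Late Posterior PSM of MULTI-seq 2, with 6 gastruloids of day 4 and 8 of day 4.5 that had at least 10 such cells, Mesp1 was at 13.1 ± 16.4 and then 43.4 ± 16.8 CPM (SD). It rose by 1.84 on the log2 scale (SE 0.36, edgeR adjusted p = 0.00397), with 8 of 8 gastruloids above the day 4 median, where over whole gastruloids it fell. The days overlapped, and 1.13% of 6275 genes passed. With the same minimum, Mixl1 in Caudal Epiblast did not pass for the earlier step between days 3 and 3.5, where 18.2% of 8316 genes did. None of the 3 members tested in Mature Endoderm between days 4.5 and 5 passed at this minimum, where 1.63% of 8363 genes did. At an unadjusted p under 0.05 in edgeR, 2 of these were lower at day 5, Eomes (18.6 ± 17.1 and 5.93 ± 4.12 CPM) and Lhx1 (52.3 ± 35.4 and 25.6 ± 12.5 CPM, SD, n = 7 and 9) in Mature Endoderm. In Late Posterior PSM of MULTI-seq 3, Mesp1 was at 49.9 ± 20.02 CPM at day 4.5 (SD, n = 9) and 52.9 ± 23.8 at day 5 (SD, n = 15), values that differ by less than their spread. The 1 member tested there between these days did not pass in edgeR, where 6.15% of 8421 genes did. In Late Anterior PSM (n = 5 and 12) the 1 member tested did not pass either, where 1.81% of 7201 genes did.

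**Figure D4:**
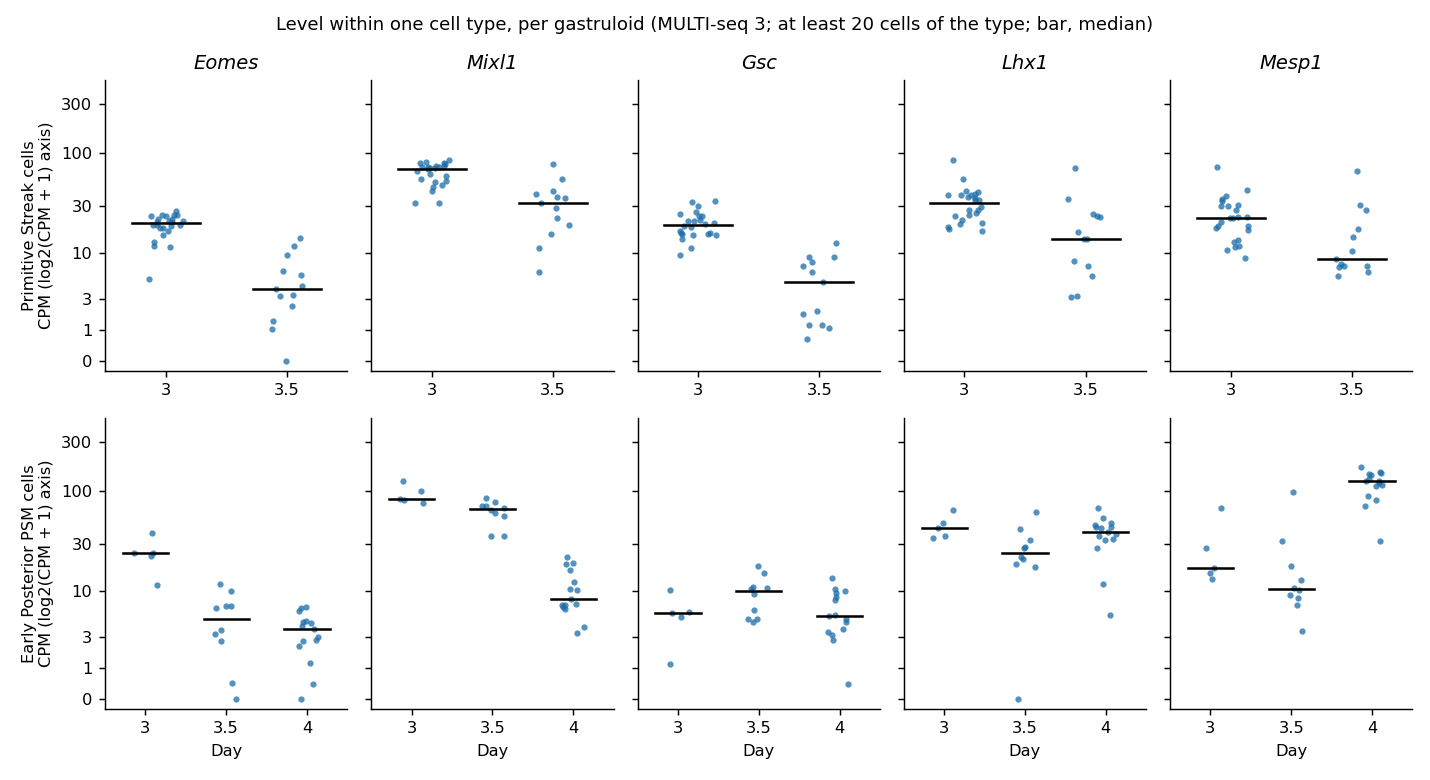
Level of each gene per gastruloid within Primitive Streak cells (top row) and Early Posterior PSM cells (bottom row) of MULTI-seq 3, in CPM on a log2(CPM + 1) axis, for gastruloids with at least 20 such cells; points are gastruloids and bars medians. Early Posterior PSM cells of day 4 lie below all of day 3.5 for Mixl1 (22.7 against 36.5 CPM at the nearest) and around a median of 124.6 CPM for Mesp1.

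The change of a day in pooled CPM can be split into a part from the shares of the cell type names and a part from the levels within names. From day 3 to day 3.5, Lhx1 changed by -69.1 CPM through shares and by -4.31 within names, and Eomes by -20.2 and -9.65 CPM. Mesp1 changed by -29.3 and -20.7, Mixl1 by -35.5 and -19.7, and Gsc by -17.0 and -5.20 CPM. With the authors' embryo-mapped names the same parts were -39.7 and -33.7 for Lhx1, -15.7 and -14.2 for Eomes, -18.3 and -31.7 for Mesp1, -23.0 and -32.1 for Mixl1 and -12.2 and -10.04 CPM for Gsc, so which part was larger depends on the naming for Mesp1 and Mixl1. Early Nascent Mesoderm went from 11.4% to 3.57% of cells over this step. From day 3.5 to day 4, the 2 parts had opposite signs for Eomes (17.3 and -4.14 CPM), Lhx1 (56.5 and -17.4) and Gsc (3.66 and -7.74). For Mixl1 both were negative (-7.86 and -18.2 CPM) and for Mesp1 both positive (26.5 and 4.64 CPM). With the embryo-mapped names, the parts of this step were 3.12 and 10.0 CPM for Eomes, 20.7 and 18.4 for Lhx1, 1.11 and -5.19 for Gsc, -2.32 and -23.8 for Mixl1 and 13.2 and 18.01 CPM for Mesp1. The sign of the within-name part for Eomes and Lhx1, and which part was larger for Eomes and Mesp1, therefore depend on the naming. From day 4 to day 4.5 of MULTI-seq 2, both parts were negative for all 5 members with either naming, at -28.3 and -17.1 CPM for Lhx1 and -21.4 and -4.22 CPM for Mesp1 with the authors' 25 names. The split has no test, and the names were drawn from the same expression data.

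Shares of cells tell how the members were spread within a name. After thinning each day 3 cell to 10000 UMIs, Lhx1 was detected in 99.6% of Anterior Primitive Streak cells, Gsc in 87.9%, Mixl1 in 80.5%, Eomes in 68.5% and Mesp1 in 24.9% (unthinned 100, 95.6, 93.4, 90.5 and 38.0%, median depth 28863 UMIs). In Early Nascent Mesoderm the shares were 89.9% for Lhx1, 87.1% for Mixl1, 78.5% for Mesp1, 77.6% for Eomes and 53.0% for Gsc (unthinned 96.8, 96.7, 88.6, 92.9 and 78.5%, depth 30731). In Primitive Streak cells the shares were 32.9% for Mixl1 and 11.7 to 14.1% for the others (unthinned 51.5% and 20.7 to 27.5%, depth 28671). A cell without a UMI of a gene may still express it, so shares of detection also depend on level and depth. Early Neurectoderm, set beside these names although it held T at 96.5 CPM and is no level without expression, gave 2.52% for Eomes, 2.20% for Mixl1, 3.72% for Gsc, 0.504% for Lhx1 and 0.949% for Mesp1 (unthinned 6.87, 6.08, 9.25, 1.72 and 2.91%, depth 27939).

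In Primitive Streak cells the members were found in the same cells more often than the product of their shares. Across the 10 pairs the ratio was 1.61 to 2.68, and it was above 1 in 24 of 24 gastruloids for every pair of the 5 genes. Lhx1 and Mesp1, for instance, were both detected in 4.44% of cells against a product of 1.66%, and Eomes and Mixl1 in 7.29% against 4.52%. In Early Nascent Mesoderm, where most cells were positive, the ratios were 1.01 to 1.05. In Early Posterior PSM of day 4, Mixl1 and Mesp1 were both detected in 2.37% of cells against a product of 3.58%, a ratio of 0.664, and the pair was above its product in 2 of 15 gastruloids. The other 9 pairs there had ratios of 1.04 to 4.60, with Lhx1 and Mesp1 at 1.26 and above their product in 15 of 15. These ratios are a description, since cells of 1 gastruloid are not replicates and the name itself was drawn from expression.

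On days 3 and 3.5, the days for which this was computed, the levels of the members were correlated across gastruloids. Over the 24 gastruloids of day 3, Pearson's r between log2(CPM + 1) levels was 0.871 to 0.967 and Spearman's rho 0.899 to 0.963 over the 10 pairs of members. The smallest r was that of Mixl1 with Lhx1 and the largest that of Gsc with Lhx1, and each pair had a two-sided permutation p of 1e-05 (the smallest that the permutations can give), 2e-05 when adjusted over 30 relations for r. Without the 2 gastruloids farthest from the median all 10 pairs still passed. No value was set apart from the rest by more than 23.7% of the range. Over the 16 gastruloids of day 3.5, r was 0.732 (Mixl1 with Gsc, permutation p = 0.00128, adjusted 0.00166, rho 0.753) to 0.980 (Eomes with Lhx1, permutation p = 1e-05, adjusted 2e-05, rho 0.944), and the widest gap was 28.3% of the range. The members of a gastruloid share its cells, library and depth. At day 3 the larger of the 2 lanes held 50.0 to 93.5% of the cells of a gastruloid (median 57.8%), and at day 3.5 the largest of 4 lanes held 26.2 to 32.1%. Within a single lane, r was 0.775 to 0.954 at day 3 (n = 23 in each lane, largest permutation p = 4e-05, adjusted over 60 relations 7.06e-05) and 0.575 to 0.973 at day 3.5 (n = 14 in each lane, largest permutation p = 0.0329, adjusted 0.0329), and all 10 pairs passed in each of the 6 lanes.

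The make-up of a day 3 gastruloid went along with the level within its Primitive Streak cells. Early Nascent Mesoderm was 2.72% to 27.0% of the cells of a gastruloid (median 8.16%) and Early Neurectoderm 1.22% to 32.8% (median 12.3%). Against the former, r was 0.624 for Mesp1 (permutation p = 0.00106, adjusted 0.00145, rho 0.519), 0.617 for Lhx1, 0.513 for Eomes, 0.446 for Mixl1 and 0.437 for Gsc (permutation p = 0.0317, adjusted 0.0317, rho 0.412). Against the latter all were negative, from -0.713 for Mixl1 (permutation p = 0.00015, adjusted 0.000237, rho -0.555) to -0.578 for Gsc (permutation p = 0.00286, adjusted 0.00318, rho -0.519), and all 10 relations passed. Without the 2 gastruloids farthest from the median, Mixl1 (r = 0.345, permutation p = 0.116) and Gsc (r = 0.352, permutation p = 0.109) no longer passed against Early Nascent Mesoderm, while r was 0.521 for Eomes, 0.487 for Lhx1 and 0.467 for Mesp1 (permutation p = 0.0293). On CPM without the log scale, 9 of the 10 relations passed, and Gsc against Early Nascent Mesoderm did not (r = 0.40, permutation p = 0.0535, adjusted 0.0535). For Eomes the lowest gastruloid was set apart by 47.4% of the range. The boundary between Primitive Streak and its neighbours was set from expression, and its part in these relations was not tested.

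Late Nascent Mesoderm of day 4 showed a wide spread between gastruloids, given here gastruloid by gastruloid in order of Eomes. Eomes was at 294, 294, 278, 232 and 216 CPM in 5 gastruloids and at 66.3, 56.9, 52.7, 52.1, 25.9 and 23 CPM in the other 6. In that order Lhx1 was at 487, 494, 846, 839, 727, 241, 199, 268, 267, 207 and 291 CPM, and Gsc at 51.0, 30.6, 60.8, 75.6, 24.2, 2.24, 1.58, 5.15, 10.4, 0.551 and 5.42 CPM. Mesp1 was at 279, 339, 182, 258, 230, 113, 114, 79.8, 117, 61.2 and 66.4 CPM. Mixl1 was at 53.6, 25.1, 8.02, 37.8, 4.90, 0.532, 1.03, 1.93, 6.91, 1.38 and 0 CPM. The gastruloids at the head of this order were also at the head for Lhx1, Gsc and Mesp1, while Mixl1 crossed. No gastruloid lay between 66.3 and 216 CPM for Eomes, so no correlation over all 11 was computed. In Mature Endoderm of the same day, the 13 gastruloids ran from 98.3 to 5.72 CPM for Eomes and from 237 to 45.4 CPM for Lhx1, and Mesp1 was at most 3.16 CPM in each.

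**Figure D5:**
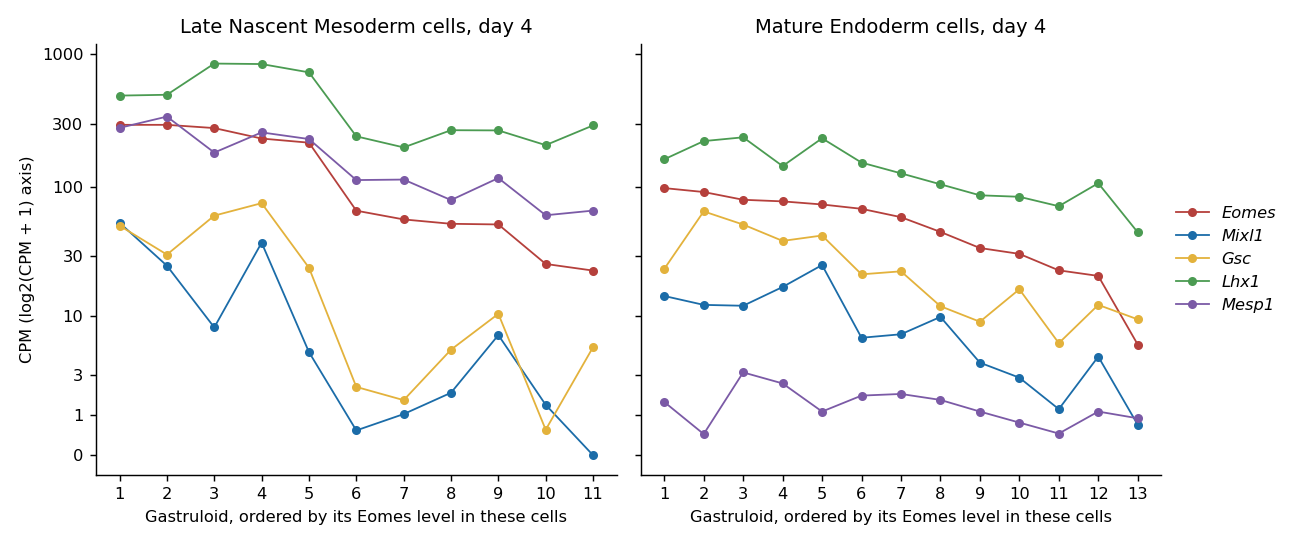
Level of the 5 genes in Late Nascent Mesoderm (left, 11 gastruloids) and Mature Endoderm (right, 13 gastruloids) of day 4, in CPM on a log2(CPM + 1) axis, with gastruloids ordered by their Eomes level and lines that join the points of a gene. On the left, Eomes lies at 216 to 294 CPM in 5 gastruloids and at 23 to 66.3 CPM in 6, and on the right it runs from 98.3 to 5.72 CPM.

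Other genes with the most similar pattern were found over 40 bins of name and day with at least 200 cells, among 9761 genes. This minimum leaves out Anterior Primitive Streak (137 cells at day 3), the name with the highest Gsc and Lhx1 levels of that day. It also leaves out Early Nascent Mesoderm of days 3.5 and 4 (167 and 76 cells) and Mature Endoderm of day 3 (49 cells). The bins share libraries and depth, and Pearson's r of log2(CPM + 1) is given as a description. Eomes was most like Tdgf1 (r = 0.90), the Nodal co-receptor Cripto, then Fgf5 (0.857), an epiblast growth factor, and Abcd4 (0.854). Gsc also had Tdgf1 (0.827) and Fgf5 (0.824) on top, then Pmepa1 (0.817). Mixl1 was most like Dennd2c (0.914), Agtrap (0.906) and A930007I19Rik (0.892). Lhx1 was most like its divergent neighbour Lhx1os (0.962), then Gata6 (0.893) and Gata4 (0.874), GATA factors of endoderm and heart. Lhx1os was at 3.09 CPM at day 3 beside 123.8 CPM for Lhx1, both pooled. The annotated spans of these neighbours share no base, exonic or intronic, and no source used here states whether the counting used strand. Mesp1 was most like Snai1 (0.919), a factor of the epithelial-to-mesenchymal transition, then Ap3s1 (0.884) and Lhfp (0.844). Among the members, Eomes and Lhx1 were closest to each other (0.872) and Gsc and Mesp1 farthest apart (0.439).

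The genes around the members were read from 4 lists, chosen with earlier results of these data known. Of all genes tested, 39.3% rose and 35.6% fell from day 3 to day 3.5, and 31.1% rose and 29.2% fell from day 3.5 to day 4. From day 4 to day 4.5 in MULTI-seq 2, 3.03% rose and 4.33% fell. Of 14 genes of Nodal and Wnt signalling, 7 rose and 4 fell of 14 tested from day 3 to day 3.5 in edgeR (median log2 difference 0.251, 0.0269 over all genes), a share near the background of 74.8%. Nodal itself fell from 24.6 ± 5.36 to 5.65 ± 3.58 CPM (SD, n = 24 and 16, edgeR adjusted p = 9.05e-13) and Tdgf1 from 115.2 ± 63.3 to 29.9 ± 33.6 CPM (adjusted p = 1.95e-05). From day 3.5 to day 4, 5 of the list rose and 4 fell, among them the Wnt ligands Wnt8a, from 41.5 ± 16.5 to 11.3 ± 15.8 CPM (SD, n = 16 each, edgeR adjusted p = 0.000106), and Wnt3a, from 14.7 ± 6.47 to 6.49 ± 3.99 CPM (adjusted p = 0.00028).

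Of 12 streak and nascent mesoderm genes, 5 rose and 3 fell of 11 tested from day 3 to day 3.5 (median 0.129), also near the background of 74.8%, led by the PSM genes Tbx6, from 10.3 ± 6.41 to 46.6 ± 43.9 CPM (SD, n = 24 and 16, edgeR adjusted p = 2.68e-06), and Dll1, a Notch ligand, from 19.3 ± 8.35 to 77.3 ± 68.2 CPM (adjusted p = 4.85e-07). From day 3.5 to day 4, 1 rose and 5 fell of 12 (median -0.147), where 60.4% of all genes passed, 31.1% upward and 29.2% downward. The gene that rose was Mesp2, the neighbour of Mesp1, from 1.41 ± 2.57 to 18.1 ± 11.9 CPM (SD, n = 16 each, edgeR adjusted p = 8.65e-07), while Evx1, a homeobox factor of the posterior streak, fell from 21.0 ± 6.83 to 7.48 ± 3.75 CPM (adjusted p = 1.32e-06). From day 4 to day 4.5 in MULTI-seq 2, 2 of 11 fell, T from 112.9 ± 52.6 to 46.1 ± 25.3 CPM (SD, n = 11 and 12, edgeR adjusted p = 0.0111) and Sp5, a Wnt target, from 113.0 ± 40.7 to 51.4 ± 16.8 CPM (adjusted p = 0.000829). In that step 4.33% of all genes fell.

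Of 14 anterior streak, node and endoderm genes, 3 rose and 4 fell of 11 tested from day 3 to day 3.5 (median -0.694), no more than the background of 74.8%. Otx2, a homeobox factor of the anterior embryo, fell from 15.7 ± 8.85 to 2.83 ± 3.39 CPM (SD, n = 24 and 16, edgeR adjusted p = 1.95e-08) and Foxa2, a forkhead factor of node and endoderm, from 21.2 ± 10.4 to 5.41 ± 3.59 CPM (adjusted p = 9.92e-11). From day 3.5 to day 4, 12 rose and 0 fell of 13 (median 1.76, 0.00882 over all genes), where 31.1% of all genes rose and 29.2% fell, with Cer1, a secreted Nodal antagonist, at 1.57 ± 2.13 and then 43.7 ± 37.9 CPM (SD, n = 16 each, edgeR adjusted p = 2.17e-07), and Otx2 at 25.5 ± 26.7 CPM at day 4 (adjusted p = 2.8e-05). From day 4 to day 4.5, 1 rose and 2 fell of 11, where 3.03% of all genes rose and 4.33% fell. The genes that fell were Sox17 (edgeR log2 difference -1.97, adjusted p = 0.0412) and Foxa2 (-1.87, adjusted p = 0.017).

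Of 12 anterior and cardiac mesoderm genes, 5 rose and 1 fell of 8 tested from day 3 to day 3.5 (median 0.675), again near the background of 74.8%. Foxc1, a forkhead factor of paraxial mesoderm, went from 9.19 ± 6.24 to 32.9 ± 37.6 CPM (SD, n = 24 and 16, edgeR adjusted p = 0.000233), and Gata6, the gene that fell, from 14.04 ± 9.70 to 5.34 ± 6.89 CPM (adjusted p = 0.00163). From day 3.5 to day 4, 10 rose and 0 fell of 11 (median 1.57), against the same 31.1% and 29.2%, led by Tbx1, a T-box factor of pharyngeal mesoderm, from 0.371 ± 0.252 to 13.6 ± 13.6 CPM (SD, n = 16 each, edgeR adjusted p = 2.48e-07), and Foxc2, from 4.68 ± 5.29 to 63.0 ± 26.5 CPM (adjusted p = 2.8e-08). In the last step, from day 4.5 to day 5, 1 rose and 2 fell over all 4 lists, where 6.35% of all genes rose and 7.11% fell.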

How the data were processed

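Single-cell RNA of mouse gastruloids was measured in 18 lanes. The deposited matrices hold raw UMI counts per gene and cell barcode, made by the authors with Cell Ranger 6.0.0 on mm10, with Seurat also named, per the submitters' processing notes. Cells, names and gastruloid calls came from the authors' deposited cell table. 4 further lanes, whose cells are not in that table, were not analysed here, and neither were 9 cells that are not in their matrix. Cells called as doublets were left out; doublets within a gastruloid are not seen by barcodes. UMIs were summed per gastruloid (at least 30 cells) or per gastruloid and name (at least 20), normalised by TMM, filtered with filterByExpr and tested with edgeR 4.0.16 quasi-likelihood, with Benjamini-Hochberg adjustment over all genes tested and a threshold of 0.05. Relations used 100000 two-sided permutations. DESeq2 1.42.0, size factors, no filter, other cell minimums and lanes left out were alternatives. In counts simulated for the 4 comparisons over all cells, 200 genes drawn at random were changed in each. Of these, 89 to 99% of 2-fold and 94 to 99% of 4-fold changes were recovered, and 3.5 to 4.81% of calls were false. The fits of days 3 to 3.5 and 3.5 to 4 called 74.8 and 60.4% of genes, far more than were changed in the simulation. Recovery of the members' own changes was not simulated, and neither were the fits within names. Named beside the 5 members are, per member, the 3 genes of highest r over bins, among genes of at least 10 CPM in a bin, and, per list and comparison, up to 2 called genes of largest change with a mean of at least 10 CPM on a day. Members and lists were chosen with earlier results of these data known. Gene positions came from GENCODE on GRCm38, and all 5 identifiers matched the files.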

Additional observations from a re-analysis of the deposited data

Results flagged for a closer look

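Groups of 4 to 10 gastruloids within a cell type name and day of MULTI-seq 3 were examined where a member had a pooled level of at least 10 CPM. Of these 24 groups, 5 had a gastruloid far above the others, judged by its gap to the next as a share of the range. The rule was applied to CPM and not to log2(CPM + 1), and a log scale narrows such gaps at the high end. Its nominal rate of about 1 in 20 holds only for independent groups of normally spread values. The count of 5 in 24 is therefore not read against that rate. Some of these groups share gastruloids. With no minimum level, a choice made after seeing the data, 25 of 105 groups had a gastruloid far above or below the others, most of them at levels under 10 CPM. In Early Posterior PSM, Mesp1 was at 68.15 CPM in a gastruloid of day 3, with the next at 27.67 (n = 5), and at 97.58 CPM in a gastruloid of day 3.5, with the next at 32.51 (n = 10). In Cardiopharyngeal Mesoderm of day 4, the highest of 6 gastruloids held Lhx1 at 86.5 CPM against 42.25 in the next, and Mesp1 at 68.62 CPM against 19.79. In NMPs of day 4, Mixl1 was at 32.19 CPM in the highest of 9 gastruloids, with the next at 23.47.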

How the results depend on the processing

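Of 133 alternative values of the members' fold changes over all cells, 130 kept direction and side of the threshold, 2 were the Mesp1 losses and 1 the Eomes gain named above, and none reversed. Within cell type names 63 of 68 did so. The 4 losses were Lhx1 in Early Posterior PSM without day 3 gastruloid 1, 4 or 5 and Mesp1 in Primitive Streak with at least 40 cells, and Mesp1 in Early Posterior PSM reversed to 0.43 without day 3 gastruloid 1, with a range of -0.58 to 0.43 on the log2 scale when each of the 5 was left out. The cause was not tested. Leaving out gastruloids in turn was chosen after seeing the data. The 47 counts of members called stayed within 1.5 times, a wide limit for counts of at most 5, within which some changed. From day 3.5 to day 4 over all cells, the count went from 2 to 3 without lane B. In Early Posterior PSM from day 3 to day 3.5, it went from 3 to 2 without day 3 gastruloid 1, 4 or 5. It was also 2 there with at least 10 cells, where 3 members were tested. Embryo-mapped names reversed the within-name part from day 3.5 to day 4 for Eomes (10.0 CPM) and Lhx1 (18.44 CPM). The other 28 parts of the 3 steps up to day 4.5 kept their sign and differed in value by any amount. Some differed little, such as the make-up part of Mixl1 in MULTI-seq 2 (-5.386 and -5.461 CPM). From day 4.5 to day 5, the make-up part of Eomes went from 0.0724 to -0.276 CPM and the within-name part of Gsc from 0.0256 to -0.253 CPM. With bins of at least 100 cells, 9 of 15 most similar genes were shared. Of 30 highest levels 1 moved, Lhx1 in Anterior Primitive Streak at day 3 (1176 CPM over all final cells). All 20 thinned shares were lower at 5000 UMIs, as drawing fewer UMIs lowers detection. No paired analysis was possible because lanes are technical splits of a pool and the same lane number in different pools marks nothing shared. No Eomes UMI was found in 8 of 16 gastruloids of day 4.5 in MULTI-seq 3, where a count of 0 allows up to 0.209 to 0.715 CPM (3 counts), in 3 of 16 of day 5 there (0.0923 to 0.444 CPM) and in 14 of 24 of day 5 in MULTI-seq 1 (0.372 to 1.27 CPM). Their depths overlapped those of the gastruloids with Eomes.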

Other observations

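The levels of Gsc in neural names are given here with no test. In Early Neurectoderm it was at 3.60 CPM at day 3, 7.12 at day 3.5 and 13.8 at day 4, pooled over 757, 303 and 54 cells, where Eomes was at 2.63, 0.834 and 0.864 CPM and Mixl1 at 2.09, 0.455 and 0 CPM. After thinning to 10000 UMIs it was detected in 3.72, 6.79 and 12.5% of cells (unthinned 9.25, 21.5 and 42.6%), and the day 3 share is the one set beside the streak names above, not read as expression. Otx2 and Foxa2, which also mark anterior streak and endoderm, were also higher at day 4 than at day 3 in these cells, at 1.29 and 21.6 CPM and at 2.09 and 12.1 CPM (Otx2 at 0 at day 3.5), with Sox17 at 0.134 and 0.864 CPM and Cer1 at 0 and 1.73 CPM, and their part was not tested. Per gastruloid it was 3.69 ± 2.41 CPM at day 3 (SD, n = 16) and 7.07 ± 3.66 at day 3.5 (SD, n = 6), with 5 of 6 above the day 3 median. Early Spinal Cord cells gave 1.05% at day 3.5 and 0.976% at day 4 for Gsc (unthinned 4.67 and 3.76%), at median depths of 37296 and 35332 UMIs against 35579 and 36850.5 in Early Neurectoderm. In the same cells of day 3.5 Lhx1 was detected in 0.712% and Mesp1 in 0.481%. Gsc was too low there for the filter of the test, so this difference was not tested. Late Neurectoderm held Gsc at 7.55 CPM at day 5 in MULTI-seq 3 (95% Poisson interval 4.83 to 11.2) and at 7.52 CPM in MULTI-seq 1 (3.25 to 14.8), beside 0.161 CPM in Early Spinal Cord of MULTI-seq 3.

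In Head Mesoderm of day 4, Lhx1 was detected in 54.7% of cells after thinning to 10000 UMIs, Mesp1 in 22.9%, Eomes in 12.1%, Gsc in 1.02% and Mixl1 in 0.657% (unthinned 80.4, 49.2, 30.5, 3.01 and 1.78%, depth 34707 UMIs). In the 54 Early Neurectoderm cells of that day, Lhx1 was detected in 2.75%, Mesp1 in 1.64% and Eomes in 0.624% after the same thinning. In Head Mesoderm, Eomes and Mesp1 were both detected in 4.57% of cells against a product of 2.77%, above the product in 6 of 7 gastruloids. Eomes and Lhx1 were both detected in 9.07% against 6.64%, above it in 7 of 7. Lhx1 and Mesp1 were both detected in 15.7% against 12.5%, above it in 5 of 7. The pairs with Mixl1 or Gsc, each found in at most 1.02% of cells, gave too few cells to read. In Mature Endoderm of day 4, Mixl1 and Gsc were both detected in 2.45% of cells against 0.729%, above the product in 13 of 13 gastruloids.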
